A study of Mus musculus with 10 samples.

Results

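The conjugating enzymes of the glutathione transferase (GST), UDP-glucuronosyltransferase (UGT) and sulfotransferase (SULT) superfamilies were followed across 5 groups of cultured mouse hepatocytes. Members were chosen by gene symbol alone, as the genes whose names begin with Gsta, Gstm, Gstp, Gstt, Gstz, Gsto, Gstk, Mgst, Ugt1a, Ugt2a, Ugt2b, Ugt3a or Sult and a digit, without pseudogenes. The annotation GRCm38.p6 holds 67 such genes, and 54 of them were listed in at least 1 library, among 18055 gene IDs in all. These were 25 GST, 18 UGT and 11 SULT genes. The 13 listed in no library were Ugt1a8, Ugt2a1, Ugt2a2, Sult1c1, Sult2a1 to Sult2a7, Sult3a1 and Sult3a2. A filter on low counts kept 44 members for testing, 22 GST, 15 UGT and 7 SULT, and left out Gsto2, Gstt4, Mgst2, Sult1e1, Sult2b1, Sult4a1, Sult6b2, Ugt1a10, Ugt2b38 and Ugt3a1. No below-filter member reached more than 0.34 FPKM in any library, FPKM being fragments scaled by transcript length and library size.

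RNA sequencing was performed on primary hepatocytes that had been isolated from C57BL/6 mice by collagenase perfusion and kept in culture, with 2 libraries in each group. The groups were Vehicle, palmitate at 200 µM (PA), the same with Neurotropin (PA+NTP), linoleate at 12 µM (LA), and the same with Neurotropin (LA+NTP). The free fatty acids (FFAs) were given for 24 h, and NTP, a protein-free extract of vaccinia-inoculated rabbit skin used as an analgesic, was added 1 h before them at 0.4 NU/mL. No group received NTP without an FFA, so the effect of NTP was measured only on top of PA or LA. The sources do not state the age or sex of the mice, how many were pooled, or whether the libraries of a group came from separate cultures, so p-values measure only the spread between these libraries, which may be technical.

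GSTs join glutathione to electrophiles such as lipid peroxidation products and drug metabolites, and the alpha, mu and pi classes make up most of the cytosolic enzyme in liver. UGTs of the endoplasmic reticulum transfer glucuronic acid from UDP-glucuronate to bilirubin, steroids, bile acids and drugs, which makes them water-soluble for export. SULTs transfer sulfate from PAPS, the activated sulfate donor of the cell, to hydroxyl groups of hormones and phenols.

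Depth ranged from 13142588 to 60046937 expected counts per library. The hepatocyte label was checked on 10 marker genes, all of which were listed in the libraries, and their summed level was 4349 and 4562 FPKM in Vehicle, 2967 and 3256 in PA, 3617 and 4027 in PA+NTP, 4256 and 4374 in LA, and 5094 and 5404 in LA+NTP. Markers of other liver cells were low, except Cd68, which set most of the summed macrophage level of 125.8 to 296.3 FPKM, and Spp1, which set most of the cholangiocyte level of 406.6 to 703.8 FPKM. Clec4f, Vsig4 and Timd4 of resident macrophages stayed below 1 FPKM, as did Krt19, Krt7 and Epcam of cholangiocytes. Other markers on these lists were higher: Marco, a macrophage scavenger receptor, measured 2.9 to 4.59 FPKM in the PA and PA+NTP libraries and 0.42 to 0.95 in the other 6, Cd5l 1.16 to 3.94 and the cholangiocyte marker Sox9 7.23 to 13.5. The 6 lymphocyte markers summed to at most 0.79 FPKM. Summed endothelial markers ranged from 30.8 to 45.1 FPKM and summed stellate markers from 12.6 to 22.7 FPKM, both with their lowest library in PA. In bulk RNA, fewer cells of a type and less RNA per cell cannot be told apart.

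Expression also followed the GC content of transcripts in a way that divided the groups. Spearman's rho between each gene's departure from its average level and its GC content, across genes within a library and given as a description, was -0.485 and -0.487 in PA and -0.572 and -0.576 in LA. It was between 0.348 and 0.575 in the 6 Vehicle, PA+NTP and LA+NTP libraries. The members do not share 1 GC content: the median was 51.9% for the 22 tested GSTs, 41.7% for the 15 UGTs and 42.4% for the 7 SULTs, against 50.6% for 13409 tested genes. Changes of the members are therefore also given after a smooth GC trend was removed from every library. The trend runs along with the treatments, so a technical and a biological origin of it cannot be told apart. Its removal may also take away effects of the treatments.

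In Vehicle cells the 3 superfamilies differed widely in level, on the length-scaled FPKM scale. GSTs summed to 8279 and 7984 FPKM in the libraries of this group, UGTs to 677 and 673, and SULTs to 13.7 and 13.4. The pi-class enzyme Gstp1 alone reached 3422 ± 26 FPKM (SD, n = 2), or 42.1% of the GST sum, followed by the mu-class Gstm1 at 1576 ± 22, the alpha-class Gsta1 at 999.9 ± 56, the microsomal Mgst1 at 572.7 ± 25 and Gsta4, an alpha-class enzyme with high activity toward 4-hydroxynonenal, at 391.4 ± 0.91. The UGT sum was mostly carried by Ugt2b36 at 160.3 ± 8.9, Ugt2b34 at 148.8 ± 1.7, Ugt2b5 at 145.1 ± 3.7 and Ugt2b35 at 119.4 ± 3.6 FPKM, with Ugt1a6b next at 44.8 ± 0.13 and the bilirubin-conjugating Ugt1a1 at 27.9 ± 2.7. Of the SULTs, only Sult1d1 at 6.13 ± 0.13 and Sult1c2 at 4.21 ± 0.37 FPKM exceeded 1 FPKM on average. Sult5a1, Sult1b1 and Sult1a1, the phenol sulfotransferase, followed at 0.97, 0.925 and 0.73 FPKM. The Vehicle libraries of Ugt2b34 and Ugt2b5 overlapped, so the order of these neighbours was not resolved.

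The superfamily sums moved in different directions across the groups. The GST sum was lowest in PA, at 6702 and 6945 FPKM, and highest in LA+NTP, at 9260 and 9498. The UGT sum was highest in LA, at 973 and 905 FPKM, and lowest in PA+NTP, at 477 and 412, whereas PA at 677 and 691 lay beside Vehicle. The SULT sum was 18.6 and 17.3 FPKM in LA and 10.3 and 7.85 in PA+NTP. In each of these lowest and highest groups both libraries lay outside the range of the Vehicle libraries. With 2 libraries against 2, an exact permutation test of a single sum cannot give a p below 0.333, so the sums are given without one.

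**Figure D1:**
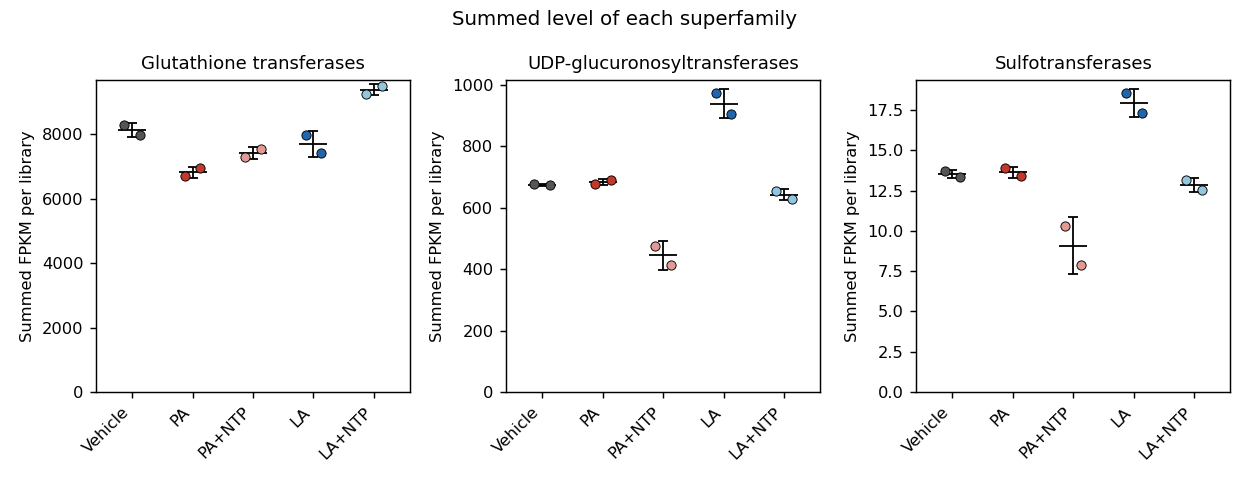
Summed FPKM of the members of each superfamily (vertical axes, from 0) in the 5 groups (horizontal axes). Points are libraries, the dash is the group mean and the bar its SD (n = 2). GST sums are lowest in PA and highest in LA+NTP, and UGT and SULT sums are highest in LA and lowest in PA+NTP.

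PA lowered 9 of the 44 tested members and raised 2, where a call needs a Benjamini-Hochberg adjusted p under 0.05 over all 14097 tested genes in edgeR's quasi-likelihood test and a fold change of at least 1.5. Over all tested genes, 8.92% were lower and 6.00% higher in that comparison. The lowered members were Gstm1, Gstm3, Gstp2, Gstp3, Gstt1, Gstz1, Mgst3, Ugt1a1 and Ugt1a5, and the raised ones Gsta1 and Gsta2. Summed hepatocyte markers were lower in both PA libraries than in both Vehicle libraries. Of the macrophage list, Marco was higher in PA, while Cd5l, Clec4f and Vsig4 were lower. This list summed to 201.9 and 237.8 FPKM in PA and to 208 and 208.1 in Vehicle. The part of any of these in the results was not tested. LA raised 6 members, against 3.53% of all genes, and lowered only Ugt1a5, against 7.11% of all genes. The raised members were Gsta1 and 5 UGTs, Ugt1a9, Ugt2a3, Ugt2b1, Ugt2b36 and Ugt2b5. With the GC trend removed, PA had 1 member higher and 8 lower, against 3.83% and 4.84% of all genes. LA then had 0 higher and 1 lower, against 1.18% and 2.34% of all genes. The median log2 fold change over the tested members was -0.18 with PA and 0.06 with LA, beside -0.01 over all genes in each case.

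With NTP on top of an FFA, some mu-class GSTs were higher (2 of 7 tested on PA and 4 of 7 on LA), and 4 of 6 UGT2B genes and 2 of 7 SULTs were lower on each FFA. With the GC trend removed, no member was called lower in either comparison, and Gstm3 on both FFAs and Ugt1a7c on PA were the members called higher. Over all genes, 3.65% were then higher and 2.55% lower on PA, and 3.62% and 2.65% on LA. In PA+NTP against PA, 3 members were higher (Gstm2, Gstm3 and Ugt1a7c; 8.74% of all genes were) and 7 were lower (Gsta2, Sult1c2, Sult1d1, Ugt2b34, Ugt2b35, Ugt2b36 and Ugt2b5; 5.11% of all genes were). In LA+NTP against LA, 5 were higher (Gstm1, Gstm2, Gstm3, Gstm7 and Mgst3; 11.7% of all genes were) and 6 were lower (Sult1c2, Sult1d1, Ugt2b34, Ugt2b35, Ugt2b36 and Ugt2b5; 7.57% of all genes were). No member was called when the NTP effect on PA was tested against that on LA, and neither was any other gene (0%). At an unadjusted p under 0.05, 5 members and 1029 of the 14097 genes differed in that test. The smallest adjusted p among members was 0.629, for Gsta3.

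**Figure D2:**
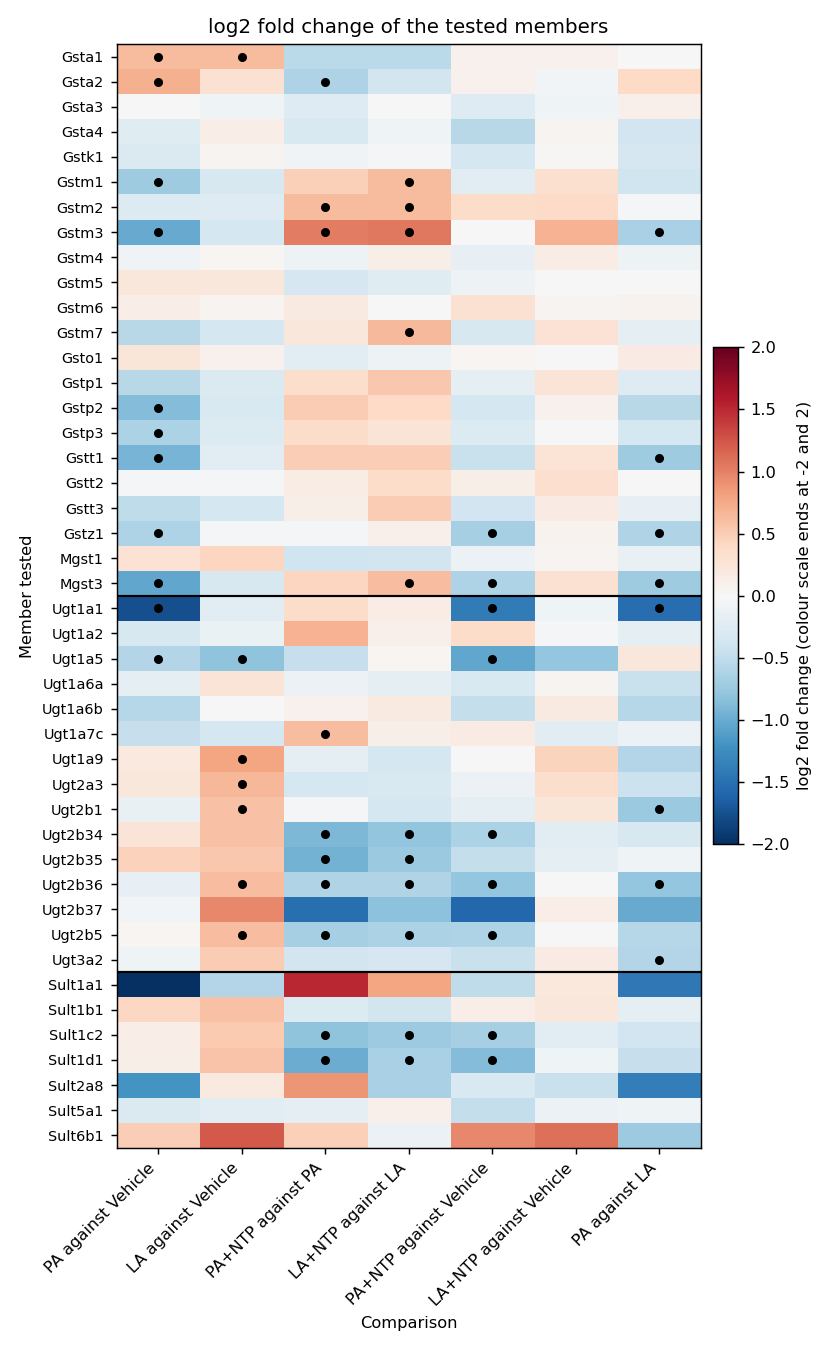
log2 fold change (colour, from -2 in blue to 2 in red) of the 44 tested members (rows, in the order GST, UGT and SULT, divided by lines) in 7 comparisons (columns). A black dot marks a change that passed the adjusted p and the fold threshold. Dots on Ugt2b34, Ugt2b35, Ugt2b36, Ugt2b5, Sult1c2 and Sult1d1 mark lower levels with NTP under both FFAs, and no dot stands in the column of LA+NTP against Vehicle.

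The alpha-class GSTs Gsta1 and Gsta2, which handle lipid peroxides and are induced by many electrophiles, rose with PA. Gsta1 measured 1040 and 960 FPKM in Vehicle, 1441 and 1575 in PA, 936 and 1224 in PA+NTP, 1505 and 1492 in LA, and 967 and 1146 in LA+NTP. Its PA and LA libraries all lay above the other 6. The log2 fold change was 0.63 with PA (SE 0.111, adjusted p = 3.88e-04) and 0.63 with LA (SE 0.111, adjusted p = 4.47e-04). Gsta2 measured 216.4 and 178.5 FPKM in Vehicle, 304.5 and 326 in PA, 206.7 and 220.9 in PA+NTP, 232.3 and 242.4 in LA, and 180.7 and 198.6 in LA+NTP. It was 1.64-fold higher in PA (log2 0.71, SE 0.0856, adjusted p = 1.70e-05) and 1.54-fold lower in PA+NTP than in PA (log2 -0.62, SE 0.0848, adjusted p = 4.79e-05). These genes are hard to separate by sequence: 92.9% of the 31-base sequences of Gsta1 and 60.7% of those of Gsta2 also occur in transcripts of other genes. For Gsta1 the largest share, 80.3%, was with the predicted gene Gm3776, which is not part of the sum that follows. With the counts of both summed, the log2 fold change was 0.64 with PA (adjusted p = 2.00e-04), which passed, and 0.58 with LA (adjusted p = 5.00e-04), which missed the fold threshold. With the GC trend removed Gsta2 kept its PA call at 0.59, though at 0.5849 it missed the threshold once a replicate block was added, and its PA+NTP value was -0.48, under the threshold. That NTP call was also lost with both genes summed (-0.55), under library-size scaling (-0.56) and in both limma fits (-0.56). Gsta1 missed the fold threshold at 0.50 with PA and 0.47 with LA. The PA call of Gsta1 was also lost without Vehicle 2 (0.57) or PA 2 (0.56), the number being that of the library, and its LA call without Vehicle 2 (0.57). Gsta2 lost its PA call without Vehicle 2 (0.57), and its NTP call without PA 2 (-0.58) or PA+NTP 1 (-0.55). Gsta3 and Gsta4 passed in no comparison, and Gsta4 stood at 275.9 and 268.7 FPKM in PA+NTP, its lowest level.

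Among the mu class, Gstm3 changed most, lower with PA and higher with NTP. It measured 189.4 and 159.6 FPKM in Vehicle, 99.2 and 71.8 in PA, 198.4 and 157.9 in PA+NTP, 138.4 and 124.8 in LA, and 305.4 and 257 in LA+NTP. The PA libraries lay below all others and the LA+NTP libraries above all others. It was 2.02-fold lower in PA than in Vehicle (log2 -1.01, SE 0.141, adjusted p = 5.89e-05), 2.02-fold higher once NTP was added to PA (log2 1.02, SE 0.141, adjusted p = 5.24e-05) and 2.07-fold higher in LA+NTP than in LA (log2 1.05, SE 0.137, adjusted p = 1.97e-05). These 3 calls held with the GC trend removed, at -0.86, 0.87 and 0.86, and under each of the 10 fits that leave out a library. Other transcripts hold 37.7% of its 31-base sequences, with 24.7% found in the predicted gene Gm8834.

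The more abundant Gstm1, a major hepatic GST for epoxides and other electrophiles, followed a similar order at higher levels. It measured 1592 and 1560 FPKM in Vehicle, 947 and 941 in PA, 1423 and 1324 in PA+NTP, 1265 and 1193 in LA, and 1975 and 1943 in LA+NTP, with no overlap between any pair of groups. It fell by 0.71 on the log2 scale with PA (SE 0.0576, adjusted p = 8.13e-07) and rose by 0.63 with NTP on LA (SE 0.0574, adjusted p = 9.87e-07). NTP on PA gave 0.48 (SE 0.0574, adjusted p = 1.48e-05), under the fold threshold, and with the GC trend removed the PA and LA+NTP values were -0.51 and 0.39, also under it. Gstm2 was 1.55-fold higher with NTP on either FFA, from 82.5 and 64 FPKM in PA to 136.4 and 98.2 in PA+NTP, and from 73 and 72.9 in LA to 118.8 and 113.6 in LA+NTP. Its values with the GC trend removed were 0.58 and 0.55. Gstm7, at 3.83 and 3.78 FPKM in LA and 6.39 and 5.91 in LA+NTP, was 1.57-fold higher (adjusted p = 0.00292) and stood at 0.46 with the GC trend removed. The LA+NTP call of Gstm1 was lost without the second LA library (0.58), and the PA+NTP call of Gstm2 without PA 2 (0.44) or PA+NTP 1 (0.41). Gstm4, Gstm5 and Gstm6 passed in none of the comparisons.

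Of the pi-class genes, Gstp2 and Gstp3 fell with PA, and Gstp1, the most abundant member of all, missed the fold threshold. Gstp1 measured 3440 and 3403 FPKM in Vehicle, 2223 and 2341 in PA, 2942 and 3106 in PA+NTP, 2876 and 2563 in LA, and 4011 and 4102 in LA+NTP. PA gave a 1.47-fold lower level (log2 -0.55, SE 0.0664, adjusted p = 1.73e-05). Gstp3 fell from 112.7 and 110.8 FPKM to 69.1 and 71.7, 1.55-fold (adjusted p = 6.29e-05), and Gstp2 from 13.5 and 10.1 to 7.51 and 5.58, 1.81-fold (adjusted p = 0.00844). The Gstp2 call did not hold without Vehicle 1 (adjusted p = 0.094) or PA 2 (adjusted p = 0.153), and 54.8% of its 31-base sequences occur in Gstp1. The summed counts of the 3 genes gave -0.55 (adjusted p = 1.52e-05), under the fold threshold, and Gstp3 stood at -0.39 with the GC trend removed. Only 0.5% of the 31-base sequences of Gstp3 occur in transcripts of other genes. The sum is mostly Gstp1 and is no check on the Gstp3 call.

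Other classes contributed some of the clearest PA changes. The theta-class Gstt1, which acts on small halogenated compounds, measured 65.6 and 58.5 FPKM in Vehicle, 30.4 and 33 in PA, 45.7 and 47.2 in PA+NTP, 55 and 48.9 in LA, and 74.9 and 75 in LA+NTP. It was 1.90-fold lower with PA (log2 -0.92, SE 0.0839, adjusted p = 1.85e-06) and -0.70 with the GC trend removed. Microsomal Mgst3, a membrane enzyme with glutathione peroxidase activity, fell from 24.8 and 23.2 FPKM in Vehicle to 9.73 and 12.4 in PA, 2.05-fold (log2 -1.04, SE 0.151, adjusted p = 7.90e-05), and -1.001 with the GC trend removed. It rose from 20.9 and 15.9 FPKM in LA to 27.7 and 30.9 in LA+NTP, 1.54-fold (adjusted p = 0.00132), and 0.57 with the GC trend removed, just under the fold threshold. Gstz1, the maleylacetoacetate isomerase of tyrosine breakdown, fell with PA from 44.3 and 38.7 to 28 and 25.1 FPKM, 1.53-fold (adjusted p = 8.24e-05), and measured 28.3 and 25 in PA+NTP. With the GC trend removed its PA value was -0.58, under the fold threshold. The PA call of Gstz1 was lost without Vehicle 1 (-0.52) or PA 2 (-0.54), and the LA+NTP call of Mgst3 without the second LA library (0.44) or the second LA+NTP library (0.53). Mgst1, a lipid peroxide-reducing microsomal enzyme, passed in no comparison: it was highest in LA, at 782 and 710 FPKM, a log2 fold change of 0.43 from Vehicle (SE 0.0627, adjusted p = 1.06e-04). Gstt2, Gstt3, Gstk1 and Gsto1 also passed in none of the comparisons.

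**Figure D3:**
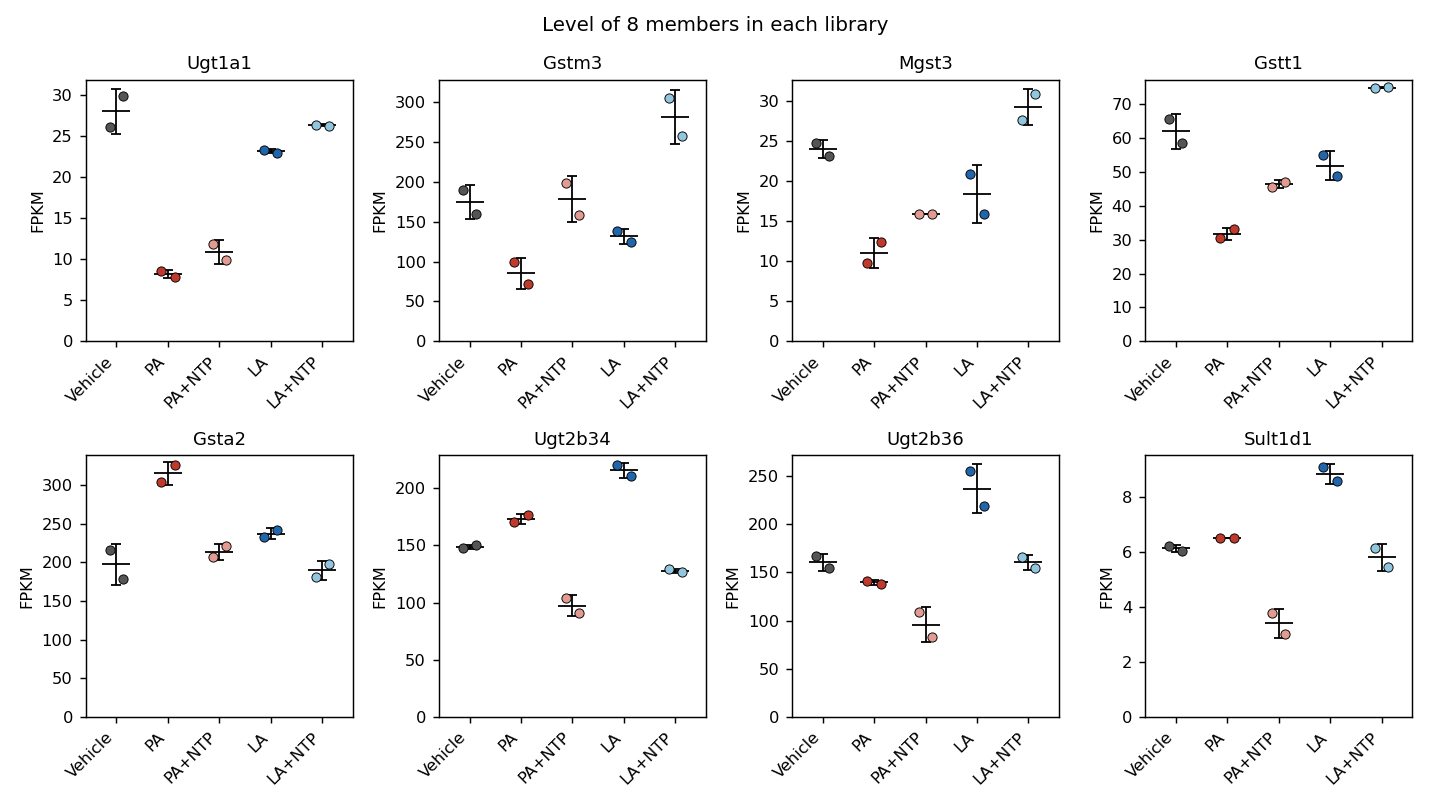
FPKM of 8 members (vertical axes, from 0) in the 5 groups (horizontal axes). Points are libraries, the dash is the group mean and the bar its SD (n = 2). Ugt1a1 lies between 7.79 and 11.87 FPKM in the 4 PA-treated libraries and at 22.93 or above in the other 6, and Gstm3 is lowest in PA and highest in LA+NTP.

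The Ugt1a genes are read from 1 locus on chromosome 1, in which each gene has a first exon of its own and all share the later exons. Reads from the shared exons therefore do not tell the genes apart: between 53% and 84.2% of the 31-base sequences of the tested Ugt1a genes occur in other transcripts. The 30 bases at the junction of the own exon and the shared exon (chr1:88215044-88215175, plus strand, GRCm38), taken from GENCODE M21, are printed to show how far the genes differ where the shared part begins. The last 15 bases of the own exon are in capitals and the first 15 of the shared exon in lower case.
Ugt1a1: AAGCCCCTATCCCAGgaatttgaagcctat
Ugt1a2 and Ugt1a5: AAGCCCCTCTCTCAGgaatttgaagcctat
Ugt1a6a and Ugt1a6b: GGAAAGCTGACTCAGgaatttgaagcctat
Ugt1a7c and Ugt1a10: AAGCCACTTTCCAAGgaatttgaagcctat
Ugt1a9: AAGTCACTTTCCAAGgaatttgaagcctat

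The Ugt1a1 junction differs from those of the other genes, while 3 pairs are identical over these bases, so that a read over these bases alone does not separate the genes of a pair. The own exon of Ugt1a1 lies at chr1:88211959-88212871.

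Ugt1a1, the enzyme that conjugates bilirubin, showed the largest fall of any called member. It measured 26 and 29.9 FPKM in Vehicle, 8.53 and 7.79 in PA, 11.9 and 9.84 in PA+NTP, 23.3 and 22.9 in LA, and 26.3 and 26.2 in LA+NTP. All 4 libraries treated with PA, with or without NTP, lay far below the other 6. It was 3.38-fold lower in PA than in Vehicle (log2 -1.76, SE 0.0925, adjusted p = 2.25e-08), and this call held in the 10 fits without a library and in 12 other settings, though not under a NOISeq rule, which called no member. The value was -1.87 with the GC trend removed. LA gave -0.23 (SE 0.0846, adjusted p = 0.0422), under the fold threshold. NTP on PA gave 0.36 (SE 0.0938, adjusted p = 0.00571), also under it, and Ugt1a1 in PA+NTP remained 2.63-fold below Vehicle (log2 -1.39, SE 0.0878, adjusted p = 8.67e-07).

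The rest of the locus moved less, and Ugt1a2 and Ugt1a6a passed in none of the comparisons. Ugt1a6b, a phenol-conjugating isoform, stood at 44.8 and 44.9 FPKM in Vehicle and 33.5 and 26.4 in PA (log2 -0.57, SE 0.121, adjusted p = 0.0016), just under the fold threshold, and passed it with the GC trend removed at -0.68. Ugt1a5, at 1.85 and 2.15 FPKM in Vehicle, was lower in PA (1.21 and 1.37 FPKM, log2 -0.59, adjusted p = 0.0203) and 1.75-fold lower in LA (0.99 and 1.25 FPKM, adjusted p = 0.00339). The PA call of Ugt1a5 was lost without the second Vehicle library (adjusted p = 0.155), without the first PA library (0.0874) or without the second (0.053). Ugt1a9 was 1.73-fold higher in LA, at 4.52 and 3.38 FPKM against 2.31 and 2.45, but not without the first LA library (adjusted p = 0.091). Ugt1a7c rose 1.54-fold when NTP was added to PA (2.3 and 2.28 against 1.48 and 1.41 FPKM), and lost the call when any of these 4 libraries was left out, with adjusted p between 0.078 and 0.198. The summed counts of 8 Ugt1a genes were 252.8 and 265.2 CPM (counts scaled to library size) in Vehicle, 163.4 and 138.7 in PA, 186.7 and 145.2 in PA+NTP, 252.6 and 242.5 in LA, and 272.6 and 262.5 in LA+NTP. For this sum, which does not depend on how reads were divided within the locus, PA gave a log2 fold change of -0.75 (SE 0.0968, adjusted p = 2.98e-05) and LA of -0.02 (SE 0.0948, adjusted p = 0.893).

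The UGT2B enzymes, which conjugate steroids, bile acids and many drugs, included the 4 highest UGT levels. With PA their values as tested went both ways, 3 of 6 up and 3 down, and none passed. With the GC trend removed none passed either, and only Ugt2b35 was positive with PA, at 0.06. Ugt2b36 then stood at -0.50 (adjusted p = 0.00137) and Ugt2b5 at -0.34 (adjusted p = 0.00176), under the fold threshold. With NTP all 6 had negative values on each FFA as tested. Of the 14097 genes, 6924 were negative with NTP on PA and 6932 on LA. Among the 6, Ugt2b37 had only 0 to 24.6 counts per library. With the GC trend removed Ugt2b1 turned positive, at 0.34 on PA and 0.14 on LA, and the other UGT2B genes stayed negative. Ugt2b34 measured 147.6 and 150 FPKM in Vehicle, 170.3 and 176.2 in PA, 103.8 and 90.9 in PA+NTP, 220.2 and 211.1 in LA, and 129.1 and 126.6 in LA+NTP, with no overlap between groups. Ugt2b35 measured 116.8 and 122 in Vehicle, 151.4 and 170.9 in PA, 83.9 and 90.6 in PA+NTP, 173.7 and 164 in LA, and 103.2 and 104.7 in LA+NTP. Ugt2b36 measured 166.5 and 154 in Vehicle, 141.4 and 137.5 in PA, 108.6 and 83 in PA+NTP, 254.6 and 219.1 in LA, and 165.4 and 155 in LA+NTP. For these 3 genes and for Ugt2b5, which measured 147.7 and 142.5 in Vehicle, 144.2 and 148.5 in PA, 104.3 and 88.5 in PA+NTP, 220.6 and 212.2 in LA, and 147.8 and 139.2 in LA+NTP, the PA+NTP libraries were the lowest of the 10.

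With LA, Ugt2b36 rose 1.53-fold (log2 0.61, SE 0.0988, adjusted p = 2.30e-04) and Ugt2b5 1.54-fold (log2 0.62, SE 0.0685, adjusted p = 1.24e-05). Ugt2b34 at 0.58 (adjusted p = 9.85e-06) and Ugt2b35 at 0.55 (adjusted p = 3.50e-05) fell short of the fold threshold. Lower-level members that passed were Ugt2b1, at 2.81 and 3.02 FPKM in Vehicle and 4.55 and 3.94 in LA (adjusted p = 0.0309), and Ugt2a3, at 1.27 and 1.77 against 2.49 and 2.21 (adjusted p = 0.0314). The calls of Ugt2b1 and Ugt2a3 were each lost in 3 of the fits without a library (Ugt2b1 without either Vehicle library or the first LA library, Ugt2a3 without the first Vehicle library or either LA library), with adjusted p from 0.0525 to 0.227. The Ugt2b1 call was also lost in 8 of 11 other settings, among them library-size scaling (0.54), no filter (0.58) and the replicate block (0.56). That of Ugt2b36 was lost without Vehicle 2 (0.55) or LA 1 (0.50), and in 5 of 11 other settings. The LA call of Ugt2b5 was lost in 5 of 12 other settings, among them library-size scaling (0.58). None of the LA rises held with the GC trend removed: the values were then 0.25 for Ugt2b36, 0.20 for Ugt2b5, 0.17 for Ugt2b1, 0.30 for Ugt2a3, 0.58 for Ugt1a9 and 0.47 for Gsta1, and only the fall of Ugt1a5 was called.

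With NTP, the 4 abundant UGT2B genes were lower under both FFAs. The log2 fold changes in PA+NTP against PA were -0.89 for Ugt2b34 (SE 0.0624, adjusted p = 3.45e-07), -0.94 for Ugt2b35 (SE 0.0695, adjusted p = 4.68e-07), -0.66 for Ugt2b5 and -0.60 for Ugt2b36. In LA+NTP against LA they were -0.80 for Ugt2b34 (SE 0.0619, adjusted p = 3.11e-07), -0.74 for Ugt2b35, -0.63 for Ugt2b5 and -0.61 for Ugt2b36. The transcripts of these genes have a GC content of 39.3% to 41.7%, and removing the GC trend took all 8 changes below the fold threshold. The values were then -0.50, -0.53, -0.27 and -0.26 on PA and -0.29, -0.22, -0.13 and -0.17 on LA, in the same order of genes. Adjusted p stayed under 0.05 for Ugt2b34 and Ugt2b35 on both FFAs and for Ugt2b5 on PA. Ugt2b5 shares 56.4% of its 31-base sequences with other transcripts, and its counts summed with Ugt2b37 and Ugt2b38 gave the same calls. Ugt2b36 lost its PA+NTP call without the first PA library (-0.58) or the second PA+NTP library (-0.45). Its LA+NTP call was lost without the first LA library (-0.50) or the second LA+NTP library (-0.57). In other settings Ugt2b36 lost its PA+NTP call in 6 of 11 and its LA+NTP call in 5 of 11. Among them was library-size scaling (-0.54 and -0.56). Ugt2b5 lost its PA+NTP call without the second PA+NTP library (-0.58). Ugt2b37 passed in none of the comparisons.

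The SULTs were few and low. Sult1d1, which sulfates catecholamines and related amines, measured 6.22 and 6.04 FPKM in Vehicle, 6.51 and 6.52 in PA, 3.78 and 3.03 in PA+NTP, 9.09 and 8.59 in LA, and 6.15 and 5.45 in LA+NTP. It fell 1.99-fold with NTP on PA (log2 -0.995, SE 0.116, adjusted p = 1.31e-05) and 1.57-fold with NTP on LA (log2 -0.65, SE 0.105, adjusted p = 1.28e-04). Its transcript has the lowest GC content of the tested members, 34.7%, and with the GC trend removed these values were -0.51 and -0.01. Sult1c2 measured 4.65 and 4.43 FPKM in PA, 2.97 and 2.43 in PA+NTP, 6.23 and 5.45 in LA, and 3.09 and 4.12 in LA+NTP. It fell 1.74-fold (adjusted p = 0.00266) and 1.66-fold (adjusted p = 0.00228), and stood at -0.52 and -0.37 with the GC trend removed. The LA+NTP call of Sult1d1 was lost without the second LA+NTP library (-0.57) and that of Sult1c2 without the first (-0.55). Sult1a1 rested on 3 to 60 counts per library. It stood at 0.89 and 0.57 FPKM in Vehicle, 0.16 and 0.18 in PA, and 0.91 and 0.13 in PA+NTP, and did not pass for PA (log2 -2.004, SE 0.803, adjusted p = 0.0554). The 2 PA+NTP libraries differed from each other by more than any pair of groups did. Sult1b1, Sult5a1, Sult2a8 and Sult6b1 passed in none of the comparisons at this depth as tested. With the GC trend removed, Sult2a8, at 0.33 and 0.31 FPKM in Vehicle and 0.14 and 0.13 in PA, was called lower with PA (log2 -1.60, SE 0.529, adjusted p = 0.0324).

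Compared directly with Vehicle, PA+NTP cells had 9 members lower and 0 higher, while 1.64% of all genes were lower and 1.21% higher. They were Gstz1, Mgst3, Sult1c2, Sult1d1, Ugt1a1, Ugt1a5, Ugt2b34, Ugt2b36 and Ugt2b5, and the share lowered was 20.5% of the tested members. Ugt1a1 had the largest change, followed by Ugt1a5 at -1.04 (SE 0.189, adjusted p = 0.00313), Sult1d1 at -0.87 (SE 0.117, adjusted p = 3.28e-04) and Ugt2b36 at -0.77 (SE 0.0998, adjusted p = 2.51e-04). Vehicle and PA+NTP libraries have the same sign of the GC trend, and all 9 calls held with it removed, where 1.6% of all genes were lower. Summed hepatocyte markers were also lower in PA+NTP than in Vehicle, and the part of that in these results was not tested. Sult1c2 lost its call without either Vehicle library or the second PA+NTP library (adjusted p from 0.095 to 0.227), and Mgst3 without either Vehicle library (0.112 and 0.0684). Gstz1 lost it without the first Vehicle library (-0.56), Ugt1a5 without the second (adjusted p = 0.0539), and Ugt2b34 (-0.57) and Ugt2b5 (-0.53) without the second PA+NTP library.

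In LA+NTP against Vehicle no member was called, while 0.0567% of all genes were higher and 0.0355% lower. At an unadjusted p under 0.05, 11 of the 44 members and 2014 of the 14097 genes differed, and DESeq2 called 1 member. The nearest to a call was Gstm3, at 0.69 (SE 0.136, adjusted p = 0.0539). Gstm1 had an adjusted p of 0.0421 with a fold of 1.25.

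The FFAs were given at different concentrations, so their nature and their dose cannot be told apart, and PA against LA compares the treatments as given. In that comparison 8 members were lower in PA and 0 higher, against 2.04% and 1.18% of all genes. The 8 were Ugt1a1 (log2 -1.53, SE 0.0922, adjusted p = 3.89e-07), Ugt2b36 (-0.78), Ugt2b1 (-0.74), Gstt1 (-0.72), Mgst3 (-0.71), Gstm3 (-0.65), Gstz1 (-0.60) and Ugt3a2 (-0.59). Of the 44 tested members, 37 had a negative value, with a median of -0.37, beside 0.01 over all genes. PA and LA libraries have the same sign of the GC trend, and 7 of the 8 calls held with it removed, Ugt3a2 falling to -0.56. Over all genes, 1.96% were then lower and 1.17% higher. The call of Ugt2b1 was lost in 5 of the fits without a library, with adjusted p from 0.0554 to 0.354, as was that of Ugt3a2 without any 1 of the 4 PA and LA libraries, with adjusted p from 0.0519 to 0.118. Without the second PA library Gstm3 (adjusted p = 0.139) and Gstz1 (-0.52) were lost, and without the first LA library Gstm3 (0.0928), Gstz1 (-0.52) and Mgst3 (0.118). Summed hepatocyte markers were lower in both PA libraries than in both LA libraries. Summed macrophage markers were higher, 201.9 and 237.8 against 125.8 and 130.5 FPKM, a sum set mostly by Cd68. Marco and Adgre1 of that list were also higher in PA than in LA, while Cd5l, Clec4f and Vsig4 were lower. The part of any of these in the results was not tested.

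**Figure D4:**
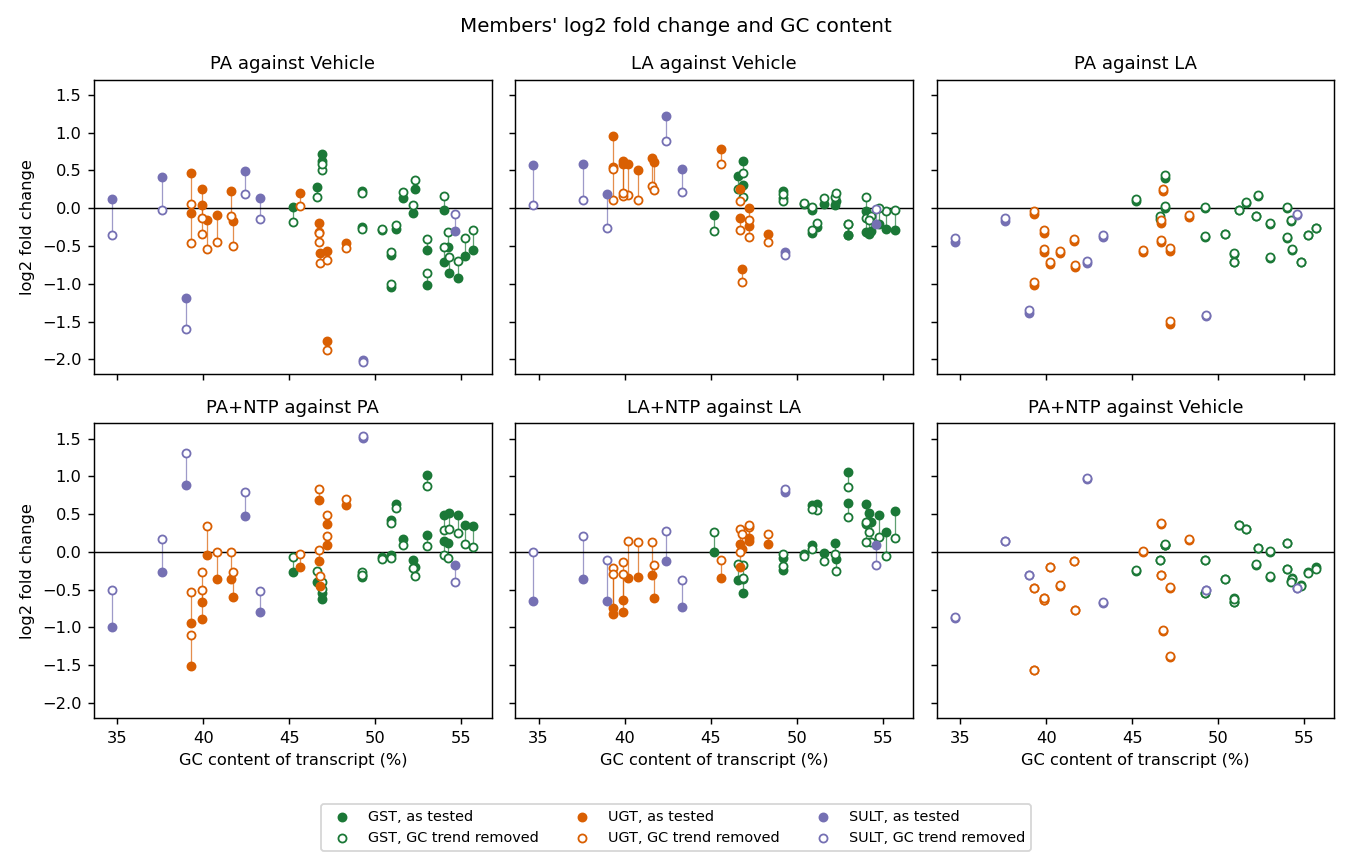
log2 fold change (vertical axes) against GC content of the transcript in percent (horizontal axes) of the 44 tested members in 6 comparisons, coloured by superfamily. Filled points are the values as tested and open points those with the GC trend removed, joined by a line. The lines are long in the comparisons of an FFA with Vehicle or with NTP, where Sult1d1 at 34.7% moves from -0.65 to -0.01 in LA+NTP against LA, and short in PA against LA and PA+NTP against Vehicle.

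Genes that supply the cosubstrates were read from lists, with values as tested and the GC trend in place. For these and the lists that follow, the shares over all tested genes were 6.00% higher and 8.92% lower with PA. They were 3.53% and 7.11% with LA, 8.74% and 5.11% with NTP on PA, and 11.7% and 7.57% with NTP on LA. The lists are short, so a single call does not set a list apart from all genes. The list of UDP-glucuronate supply and handling had 6 tested genes, among them the transporter Slc35d1 and Gusb, which cleaves glucuronides. Of these, Ugp2, which forms UDP-glucose, and Ugdh, which oxidizes it to UDP-glucuronate, were lower with NTP on both FFAs. Ugp2 measured 52.5 and 54.2 FPKM in Vehicle, 72.5 and 68.9 in PA, 37.6 and 36.7 in PA+NTP, 85.9 and 81.1 in LA, and 48.8 and 46.9 in LA+NTP. Its log2 fold change was 0.69 with LA (adjusted p = 1.86e-06), -0.99 with NTP on PA (adjusted p = 1.08e-07) and -0.85 with NTP on LA (adjusted p = 1.33e-07). Ugdh changed by -0.85 (adjusted p = 5.11e-07) and -0.72 (adjusted p = 7.69e-07) with NTP. The other 4 genes passed in none of these comparisons.

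Of 9 tested genes of glutathione supply, only Gsr, glutathione reductase, was higher with PA, where 6.00% of all genes were. It measured 88 and 82.8 FPKM in Vehicle and 125.7 and 136 in PA (log2 0.65, adjusted p = 3.27e-06). Only Ggct, which acts in glutathione breakdown, was lower with NTP on LA (-0.60, adjusted p = 0.00104), where 7.57% of all genes were. Of 7 tested genes for PAPS supply and sulfate handling, Bpnt2, a Golgi phosphatase that clears the byproduct of sulfation, was lower with NTP on PA (-0.60, adjusted p = 2.83e-05) and on LA (-0.68, adjusted p = 5.43e-06). Slc35b2, the Golgi PAPS transporter, was lower with PA (-0.81, adjusted p = 2.88e-05) and higher with NTP on PA (0.68, adjusted p = 1.07e-04). Of 9 tested transporters of the export list, Abcb1b (0.78, adjusted p = 5.06e-06) and Abcc1 (0.64, adjusted p = 2.62e-05) were higher and Abcc6 lower (-0.92, adjusted p = 0.00154) with PA. Abcc6 was higher with NTP on PA (0.62, adjusted p = 0.0175), and Abcg2 was lower with NTP on LA (-0.67, adjusted p = 1.11e-06).

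Among the sensors and hepatic transcription factors, Hnf4a, a nuclear receptor of hepatocytes, was lower with PA (67 and 66.5 FPKM in Vehicle, 37.2 and 41.6 in PA; log2 -0.73, adjusted p = 1.40e-06). Nfe2l2 (NRF2), Ahr, Nr1i2 (PXR) and Nr1i3 (CAR) passed in none of the comparisons of an FFA with Vehicle or with NTP. Of 9 tested NRF2 reference targets, only Osgin1 passed in these comparisons, lower with PA (-0.91) and LA (-0.78) and higher with NTP on PA (0.64) and LA (0.92). With PA and with NTP on PA, most of the list had the opposite sign to Osgin1, under the fold threshold. With PA 7 of 9 were positive (median 0.44), and with LA 5 of 9 (median 0.05), beside 6930 and 6959 of all 14097 genes. With NTP 6 of 9 were negative on PA (median -0.32) and 5 of 9 on LA (median -0.16). Over all genes, 6924 and 6932 were negative there. A count of 5 of 9 is near the share over all genes, and 6 of 9 is not far from it. Of 5 tested targets of PXR, CAR and AHR, Cyp1a1 was higher with PA (0.29 and 0.32 FPKM in Vehicle, 1.11 and 0.66 in PA; log2 1.55, adjusted p = 0.00333) and lower with NTP on PA (-1.12, adjusted p = 0.015). Tiparp was higher with PA (0.73, adjusted p = 5.19e-04), and Cyp1a2 was higher with NTP on PA (0.71, adjusted p = 7.04e-04) and on LA (0.62, adjusted p = 9.86e-04).

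Promoters were read from RefSeq (GRCm38.p6), from 250 bases before to 50 after each start, for 49 of the 54 members. The core of the antioxidant response element, TGACNNNGC on either strand, was found in at least 1 window of 4 of 49 members (8.2%), Gsta3, Gstm5, Gstm7 and Mgst1. It was found in at least 1 window of 14.0% of 27025 genes. Of the 4 members only Gstm7 was called. Its window is printed on the strand of the gene, with the match in capitals, and a match is only a description of the letters.
Gstm7 (chr3:107931735-107931743): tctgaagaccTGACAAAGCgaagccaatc

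The table holds more than 1 start for Gstm7, and the match lies 129 to 121 bases before a start inside the annotated gene (chr3:107926334-107931877, minus strand). Gstm1, Gstm2 and Gstm3, which were also higher with NTP on LA, are not among the 4 members with this core in the window.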

How the data were processed

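RNA sequencing of 10 libraries in 5 groups of 2 was analysed, with groups and replicate numbers from the labels. The numbers in the deposited tables' names differ from those of the labels, which were followed. The authors deposited, per gene and library, an RSEM expected count, not normalized between libraries, and an FPKM value scaled by the authors for transcript length and library size. The submitters' processing notes name HISAT, Bowtie2, RSEM and mm10, with no versions given in the sources used here. A table lists genes from 0.01 FPKM, and genes that a library did not list were set to 0. Of 18055 gene IDs, 17998 were matched to RefSeq by ID and 11 by accession, and 46 were not matched.

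Expected counts were rounded and tested in R 4.3.3 with edgeR 4.0.16 (TMM, filterByExpr, quasi-likelihood F test, 5 groups as 1 factor over all 10 libraries), which left 14097 genes. A call required a p of under 0.05 after Benjamini-Hochberg adjustment, with a fold of 1.5 or more. The members, lists and contrasts were chosen with earlier results of these data known. Named members are those called in the comparisons of an FFA with Vehicle or with NTP, and the 5 with the highest Vehicle FPKM in each superfamily. GC content, 31-base sequences and junctions came from GENCODE M21 (GRCm38). The GC trend was fitted per library by loess (span 0.4) and removed through offsets. Alternatives were DESeq2 1.42.0, library-size scaling, other filters, no fold threshold, and limma 3.58.1 on log2(FPKM + 1) and log2(FPKM + 0.1). Further ones were a NOISeq rule at 0.95 written from its definition, fewer groups, a replicate block, summed members and leaving out each library. Members were summed where they shared at least 25% of their sequence. The Gstp genes were summed by name, although Gstp3 shares only 0.5%. Tested on simulated data for PA against Vehicle over 14097 genes, edgeR called 93 of 100 genes changed 2-fold and 100 of 100 changed 4-fold, with 0 false calls. A GC trend planted there gave 378 false calls, and 2 once removed. The simulation gave all genes the same spread, planted no change smaller than 2-fold, and used a trend that was a straight line in GC content. It therefore does not show how calls near 1.5-fold, genes with a wider spread or a trend of another shape fare. A gene of the regulator list and its motif are not reported here.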

Additional observations from a re-analysis of the deposited data

How the results depend on the processing

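The number of called members changed with the settings as follows. Without a fold threshold it was 21 for PA against Vehicle (11 as reported), 20 for LA (7), 22 for PA+NTP against PA (10), 21 for LA+NTP against LA (11), 17 for PA+NTP against Vehicle (9), 1 for LA+NTP against Vehicle (0) and 18 for PA against LA (8). The NOISeq rule gave 0 in each of these. With the GC trend removed it was 1 for LA, 2 for PA+NTP against PA and 1 for LA+NTP against LA, with or without the replicate block. Library-size scaling gave 3 for LA and 1 for LA+NTP against Vehicle. limma on log2(FPKM + 1) gave 0 for LA, 7 for LA+NTP against LA and 5 for PA against LA, and on log2(FPKM + 0.1) 3 for LA and 5 for PA against LA. For LA+NTP against Vehicle, DESeq2 gave 1, no filter 2, only the groups compared 2, the replicate block 2, and the block with the GC trend removed 1. The cause of these shifts was not tested. Leaving out 1 library gave 7 to 13 for PA (lowest without the second PA library), 4 to 11 for LA (without the first and the second LA library), 0 to 2 for LA+NTP against Vehicle, and 3 to 10 for PA against LA (lowest without the first LA library). The difference between the NTP effects gave 0 members in every setting run, and the NOISeq rule has no such test.

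Summed with the other Ugt1a genes, Ugt1a9 turned to -0.75 with PA and -0.0192 with LA, since the sum is carried by other genes. The calls of Ugt1a1, Gstt1 and Mgst3 with PA and the calls of Gstm3 with PA and with NTP on each FFA held in every setting but the NOISeq rule, which called no member. Whether replicate numbers pair the libraries was not resolved. Over 10 pairs of groups, the correlation of same-numbered deviations ran from -0.069 to 0.127 and exceeded 0.1 in 2. A correlation over all genes cannot exclude a pairing that affects some of them. Summed hepatocyte markers were higher in library 1 of each group, and summed macrophage markers in library 2. The replicate block changed the count of called members by over 1.5 times only for LA+NTP against Vehicle. Depth limits the members with few counts, such as Sult1a1, with 3 to 60 counts per library, and Ugt2b37, with 0 to 24.6.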

Other observations

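Members below the filter on low counts were left out of the main test. The highest of them was Sult1e1, estrogen sulfotransferase, at 0.34 FPKM in the first PA+NTP library. Gstt4 was listed only in the LA libraries, at 0.03 and 0.04 FPKM.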
